A study of Mus musculus with 3 samples.

Results

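The cells described here are lymphocytes of thymus cultures that carried transcripts of Nkg7 and Klrd1 together with an assembled beta chain of the T cell receptor (TCR). Both are genes of cytotoxic lymphocytes, while the granzyme genes Gzma, Gzmb and Gzmc were each detected in a minority of the cells. The cells were chosen by measured values. A cell was taken when it held at least 3 unique molecular identifiers (UMIs) of Nkg7, at least 1 of Klrd1 and at most 1 of Epcam, and when the filtered contig list gave it a TCR beta (TRB) contig. Of 9349 cells assigned to a culture pool, 397 met this rule, and they are called members below. The members made up 4.25% of the assigned cells and 9.70% of the 4091 assigned cells with a TRB contig. Nkg7, Klrd1, Epcam and the presence of a TRB contig chose the cells, so their values are given as a description only.

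The study compared reaggregate cultures built on thymic epithelial cells (TECs) grown as organoids with cultures of the natural organ. In the ORFTOC pool, organoid-grown TECs had been joined with EpCAM-depleted cells of embryonic thymus and with mouse embryonic fibroblasts. In the FTOC pool, intact embryonic thymic lobes had been kept in the same medium. The thymus cells were from C57BL/6J mice with the genotype WT and without treatment, and all cells were harvested on culture day 13. The study describes the fibroblasts as wild type and gives no strain for them. The medium of both pools held FGF7. The lymphocytes of both pools came from embryonic thymus, and whether a member was already present at the start of the culture was not tested. For each pool, 2 cultures were mixed before a hashtag antibody was added, and both pools ran in 1 lane with gene expression, TCR and hashtag libraries made from the same cells. Each pool is therefore 1 sample, no test between pools or cell groups was made, and the 95% intervals given cover counting error only. The matrix held 103984163 UMIs in all. The 203 ORFTOC members had a median of 12602 UMIs and the 194 FTOC members a median of 11251. Their share of all assigned cells was 3.88% in ORFTOC (interval 3.37 to 4.43%) and 4.72% in FTOC (4.09 to 5.41%). Among assigned cells with a TRB contig the order was reversed, with 203 of 1887 cells in ORFTOC and 194 of 2204 in FTOC.

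In mice, CD8 T cells and gamma-delta T cells can both carry natural killer (NK) receptors and granzymes, and so can NK cells and type 1 innate lymphoid cells, which have no rearranged TCR. The beta chain is joined from V, D and J segments before the alpha chain (TRA) is joined from V and J segments, and successive alpha rearrangements replace the J segments next to the V genes with ones farther along the array. The enzyme terminal transferase, encoded by Dntt, adds letters at the joints that no segment encodes, and its low activity in the fetus leaves many fetal joints without such letters. The delta chain locus lies inside the alpha locus, and an alpha rearrangement deletes it from that chromosome. CD8 is a dimer of alpha chains (Cd8a) or of an alpha and a beta chain (Cd8b1). The form with the beta chain is the coreceptor of conventional CD8 T cells.

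Cells of 3 groups served for comparison, all with at most 1 Epcam UMI. The first was the 424 cells that passed the same Nkg7 and Klrd1 limits and had no contig at all, called contig-free cytotoxic cells (181 ORFTOC, 243 FTOC, median 10166 UMIs). The second was the 3473 other cells with a TRB contig (1533 ORFTOC, 1940 FTOC, median 2420 UMIs). The third was a subset of the second, 549 mature cells with 0 UMIs of the recombinase genes Rag1 and Rag2, at least 1 of Klf2 and at least 1 of Ccr7 or S1pr1 (331 ORFTOC, 218 FTOC, median 7061 UMIs). Among all 823 cytotoxic cells, 385 were from ORFTOC, and 52.7% of them had a TRB contig (47.6 to 57.8%). Of the 438 from FTOC, 44.3% had one (39.6 to 49.1%). A further 2 cytotoxic cells had a TRA contig only.

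A TRB contig was also found in cells that should lack one. Of 2171 epithelial cells (at least 3 Epcam UMIs and 0 of the leukocyte gene Ptprc), 40 held a TRB contig (1.84%), and of 190 macrophages 36 did (18.9%). Their contigs had medians of 11 and 15 UMIs, while the contigs of members had a median of 29 UMIs with a range of 4 to 156. The epithelial cells had a median of 12827 UMIs, close to the depth of the members.

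The cells just inside and just outside the limits of the rule are given here as a description. The members held a median of 10 Nkg7 UMIs (3 to 47) and 4 Klrd1 UMIs (1 to 39). The 31 members with exactly 3 Nkg7 UMIs had 713 CPM of Ly6c2 and 560.4 CPM of Cd8b1 (CPM is the sum of a gene's UMIs over the cells, scaled to the sum of all their UMIs), and the 36 TRB cells just outside with 2 Nkg7 UMIs had 665 and 583 CPM. The 73 members with 1 Klrd1 UMI had 375 CPM of Ly6c2 and 303 CPM of Xcl1, and the 160 cells excluded for having none had 144 and 607 CPM. The 18 members with 1 Epcam UMI had 396 CPM of Cd8b1, and the 23 cells excluded with 2 or more had 189.7 CPM and a median of 19984 UMIs.

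The TRB chains of the members were diverse, and chains shared between members were found almost only in the ORFTOC pool. The 203 ORFTOC members held 221 TRB chains with 210 distinct junctions, and the 194 FTOC members held 210 chains with 209 distinct junctions. A junction that recurred in any other cell of the pool was carried by 46 of 203 ORFTOC members (22.7%, 17.1 to 29.04%) and by 4 of 194 FTOC members (2.06%, 0.565 to 5.19%). It recurred in another member in 21 ORFTOC members (10.3%) and 2 FTOC members (1.03%). The same difference between pools was present in the mature cells (24.2 and 3.67%) and in all other TRB cells (47.8 and 13.1%). No junction of a member was found in members of both pools, although 26 junctions were found in cells of both pools.

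The 11 TRB junctions carried by more than 1 member are printed below, since they show which chains recurred and how few of their letters lie outside the germline segments. They run 5′ to 3′ from the codon of the conserved cysteine of the V segment to that of the phenylalanine of the J segment. Capitals mark letters that the best match to GRCm39 germline V, D and J segments left unexplained. All were from ORFTOC except junction 9.
Junction 1, TRBV20 with TRBJ1-2: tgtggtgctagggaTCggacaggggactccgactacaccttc
Junction 2, TRBV13-3 with TRBJ1-1: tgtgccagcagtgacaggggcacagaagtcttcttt
Junction 3, TRBV3 with TRBJ1-1: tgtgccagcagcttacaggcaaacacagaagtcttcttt
Junction 4, TRBV15 with TRBJ1-1: tgtgccagcagttacacagaagtcttcttt
Junction 5, TRBV17 with TRBJ2-4: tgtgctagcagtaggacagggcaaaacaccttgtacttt
Junction 6, TRBV1 with TRBJ2-7: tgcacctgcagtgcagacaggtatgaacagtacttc
Junction 7, TRBV12-2+TRBV13-2 with TRBJ2-5: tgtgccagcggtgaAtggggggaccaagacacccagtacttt
Junction 8, TRBV12-2+TRBV13-2 with TRBJ2-7: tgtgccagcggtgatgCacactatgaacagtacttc
Junction 9, TRBV12-2 with TRBJ2-7: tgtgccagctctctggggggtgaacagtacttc
Junction 10, TRBV20 with TRBJ1-1: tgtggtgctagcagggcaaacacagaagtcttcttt
Junction 11, TRBV26 with TRBJ1-2: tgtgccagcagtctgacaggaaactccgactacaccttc

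Of these junctions, 8 held no unexplained letter. Junction 1 was in 3 members and the rest in 2 members each. Of these junctions, junction 2 was in the most cells of the pool (11), of which 6 were mature TRB cells outside the members. Junctions 3, 4, 5 and 6 were likewise shared with cells outside the members, and the other 6 were seen in members alone. For 9 of the 11 junctions every member had a TRA chain as well, but the members of a junction shared the same TRA chain for junctions 6 and 10 only. The members of junctions 1 and 4 had none.

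Across all their chains, the members resembled the mature T cells in TRB junctions rather than the bulk of the other TRB cells. Of 431 member chains, 417 could be matched to germline segments. No unexplained letter was found in 34.3% of these (29.7 to 39.1%), with 36.4% in ORFTOC and 32.0% in FTOC. The share was 36.9% (32.8 to 41.0%) in the mature cells and 15.8% (14.6 to 17.1%) in all other TRB cells. The mean number of unexplained letters was 1.79 (SD 1.89, n = 417 chains) in members, 1.79 (SD 2.05, n = 556) in mature cells and 2.89 (SD 2.24, n = 3474) in other TRB cells. The median junction length was 39 nucleotides in members and mature cells and 42 in the other TRB cells. Letters that a palindromic joint adds count as unexplained here, and a D segment was accepted from a match of 3 letters.

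**Figure D1:**
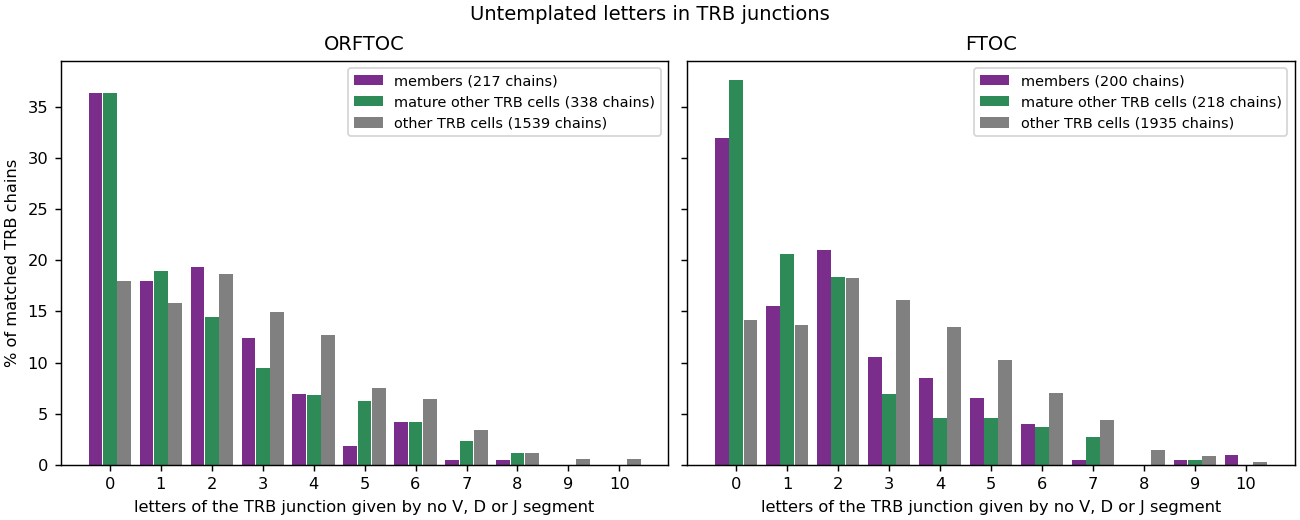
Share of matched TRB chains (y axis, %) by the number of junction letters that no V, D or J segment explained (x axis, up to 10 letters), for members, mature other TRB cells and all other TRB cells of each pool. Members and mature cells peak at 0 letters (36.4 and 36.4% in ORFTOC, 32.0 and 37.6% in FTOC), while in the other TRB cells 17.9 and 14.2% of chains have none.

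No V segment dominated the TRB chains of the members. The most used V assignment, TRBV12-2+TRBV13-2, was in 10.9% of 431 chains, followed by TRBV20 (9.05%), TRBV16 (8.12%), TRBV5 (7.89%) and TRBV19 (6.96%). TRBJ2-7, the last J segment of the locus (GRCm39 chr6:41520744-41520790), was in 20.6% of member chains (16.9 to 24.8%), 17.3% of mature and 14.2% of other TRB chains. A pair of TRB contigs was present in 34 members (8.56%, 6.004 to 11.8%) and in 139 of the other TRB cells (4.002%). All 34 also held a TRA contig. An alternative that removed likely within-pool doublets took 922 cells, of which 1 was a member. Whether some of the 34 were 2 cells in 1 droplet was not tested further.

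A TRA contig was found in 152 of 203 ORFTOC members (74.9%, 68.3 to 80.7%) and in 114 of 194 FTOC members (58.8%, 51.5 to 65.8%). Both shares lay between those of the mature cells (87.9 and 80.3%) and of all other TRB cells (47.4 and 42.8%). The members without TRA had as much support for their TRB contig as those with it, with a median of 29 UMIs in each. Of the 131 members without a filtered TRA contig, 16 (12.2%) had one in the unfiltered list.

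The TRA chains of the members were joined nearer to the V end of the J array than those of the comparison groups. In GRCm39 the array runs from TRAJ61 (chr14:54392462-54392533) to TRAJ2 (chr14:54455293-54455358), with falling numbers away from the V genes. A segment numbered 40 or above was used in 61.2% of the 304 member chains (55.5 to 66.7%), in 37.5% of 536 mature chains (33.4 to 41.8%) and in 34.2% of 1716 other chains (32.0 to 36.5%). By pool the members had 56.8% in ORFTOC (49.2 to 64.2%) and 67.2% in FTOC (58.3 to 75.2%), and the intervals of the pools overlap. The median TRAJ number was 43 in members, 33 in mature cells and 32 in other TRB cells. At the far end, TRAJ2 to TRAJ17 made up 7.89% of member chains, 17.2% of mature chains and 24.2% of the others. The V segments were nearer too, at a median of 610.0 kb from TRAJ61 in members (539 to 624 kb) against 694 kb (649 to 785 kb) in mature cells and 712 kb (694 to 793 kb) in other TRB cells. In ORFTOC the intervals of members (613 kb, 539 to 667 kb) and mature cells (694 kb, 649 to 804 kb) overlapped. In FTOC those of members (556 kb, 514 to 617 kb) and mature cells (694 kb, 636 to 804 kb) did not.

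**Figure D2:**
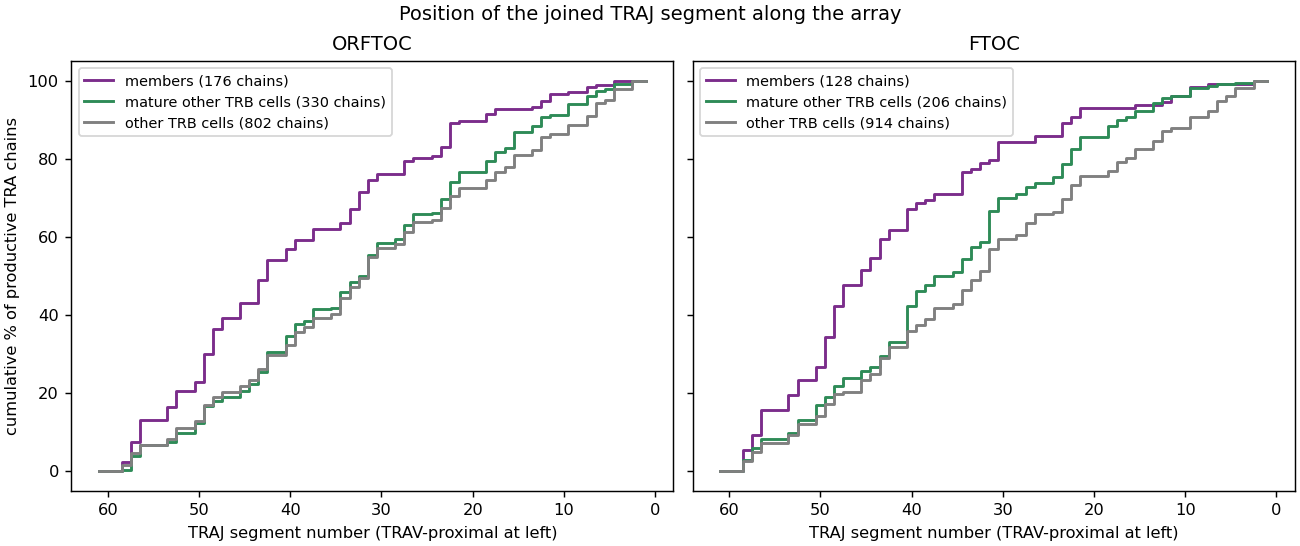
Cumulative share of TRA chains (y axis, %) by TRAJ segment number (x axis, falling from left to right, with the V end at the left), for members, mature other TRB cells and all other TRB cells of each pool. The curve of the members lies to the left of both others, reaching 56.8% in ORFTOC and 67.2% in FTOC at TRAJ40, where the mature cells of the pools reach 34.5 and 42.2%.

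TRAJ49 and TRAJ48 were used most, in 7.57 and 6.91% of member chains. The most used TRAV segments were TRAV16 (6.25%), TRAV12-2 and TRAV6-7-DV9 (5.59% each), TRAV21-DV12 (4.93%) and TRAV12D-3 (4.28%). The chains of known invariant T cells were rare. The pairing TRAV11 with TRAJ18, the alpha chain of invariant NKT cells, was seen in 2 of 304 member chains (0.658%) and in 4 of 1716 other chains, and TRAV1 with TRAJ33, that of mucosal-associated invariant T cells, in 0 of 304, where a count of 0 allows up to 0.987%. The TRAV11 junctions are shown because they identify these 2 cells, with capitals as above.
TRAV11-TRAJ18 junction 1: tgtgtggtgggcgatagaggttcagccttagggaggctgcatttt
TRAV11-TRAJ18 junction 2: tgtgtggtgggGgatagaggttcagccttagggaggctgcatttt
Both cells were from ORFTOC and had 0 UMIs of Cd4 and Cd8b1. They held 0 and 1 UMI of Zbtb16, which encodes the transcription factor PLZF of NKT cells.

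The members with and without a TRA chain differed in Cd8b1 and in gamma-delta transcripts. Cd8b1 was detected in 82.9% of ORFTOC members with TRA and 52.9% of those without, and in 89.5 and 31.2% of FTOC members. Trdc, the constant segment of the delta chain (GRCm39 chr14:54380308-54386325), was detected in 9.87% of ORFTOC members with TRA and 64.7% of those without, and in 20.2 and 71.2% of FTOC members. The median depth was 12204.5 UMIs with TRA and 11911 without, so the subsets differed little in depth. In epithelial cells, which should lack both genes, 3.36% held a Cd8b1 UMI and 0.645% a Trdc UMI. Reads of Trac and of TRA contigs come from the same transcript, so the higher Trac level of members with TRA is no separate result.

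Of 1480 genes compared (at least 100 CPM in one of the subsets), 0.608% were at least 2-fold higher and 1.89% at least 2-fold lower in members with TRA. All 5 of the gamma-delta T cell genes that reached the level limit were lower. Since an alpha rearrangement deletes the delta locus from its chromosome, the Trdc level is not independent of this split. Trdc was at 26.1 CPM with TRA and 218 CPM without (log2 ratio -3.06, -3.41 to -2.72), and Cd163l1, a scavenger receptor of gamma-delta T cells, at 51.7 and 336 CPM (-2.70, -2.95 to -2.45). The gamma chain genes Tcrg-C1 (-1.87), Tcrg-C2 (-1.40) and Trgv2 (-1.14) were lower as well. Within pools the Trdc ratio was -4.23 in ORFTOC and -2.24 in FTOC. Trgv2 was still detected in 46.7 and 39.5% of the members with TRA.

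Several NK receptor, adaptor and chemokine genes were also lower with TRA, and granule genes were mixed. Of the NK receptor and adaptor genes, 4 of 6 at the level limit were lower with TRA, and none was higher. They were the adaptors Tyrobp (57.7 and 231 CPM, -2.00) and Fcer1g (123 and 454 CPM, -1.88), the receptor Klra5 (48.8 and 145 CPM, -1.57) and the activating receptor Cd226 (-1.20). The chemokines Xcl1 (322 and 1137 CPM, -1.82, -1.93 to -1.71) and Ccl5 (220 and 649 CPM, -1.56) were lower in the cells with TRA. Of 5 granule genes at the level limit 2 were lower, 1 (Gzma) was higher and the others were within 2-fold. Gzmc was at 71.8 and 547 CPM (-2.93) and Gzmb at 227 and 474 CPM (-1.06). In the cells without TRA, 32.4% of the Gzmc UMIs came from 1 ORFTOC cell, and without it their level was 376 CPM.

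Higher with TRA were Cd8b1 (496 and 207 CPM, 1.26, 1.09 to 1.43), Cd5, an inhibitory receptor that follows the strength of TCR signals (109 and 25.1 CPM, 2.12, 1.65 to 2.63), and Gzma (228 and 109 CPM, 1.07, 0.83 to 1.32). One FTOC cell held 190 of the Gzma UMIs, and without it the cells with TRA were at 175 CPM, and within pools the log2 ratio of Gzma was 0.51 in ORFTOC and 1.63 in FTOC. Apoe, a macrophage gene, also counted as higher with TRA, but 292 of its 372 UMIs were in 1 ORFTOC cell described further down. The invariant CD3 chains differed little, with Cd3e at 532 and 573 CPM (-0.11) and Cd3d at 1007 and 1017 CPM (-0.01). Ly6c2 was detected in 49.3 and 62.7% of ORFTOC members with and without TRA and in 71.1 and 68.8% of FTOC members, and its level was 522 and 831 CPM (-0.67), under the 2-fold limit.

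**Figure D3:**
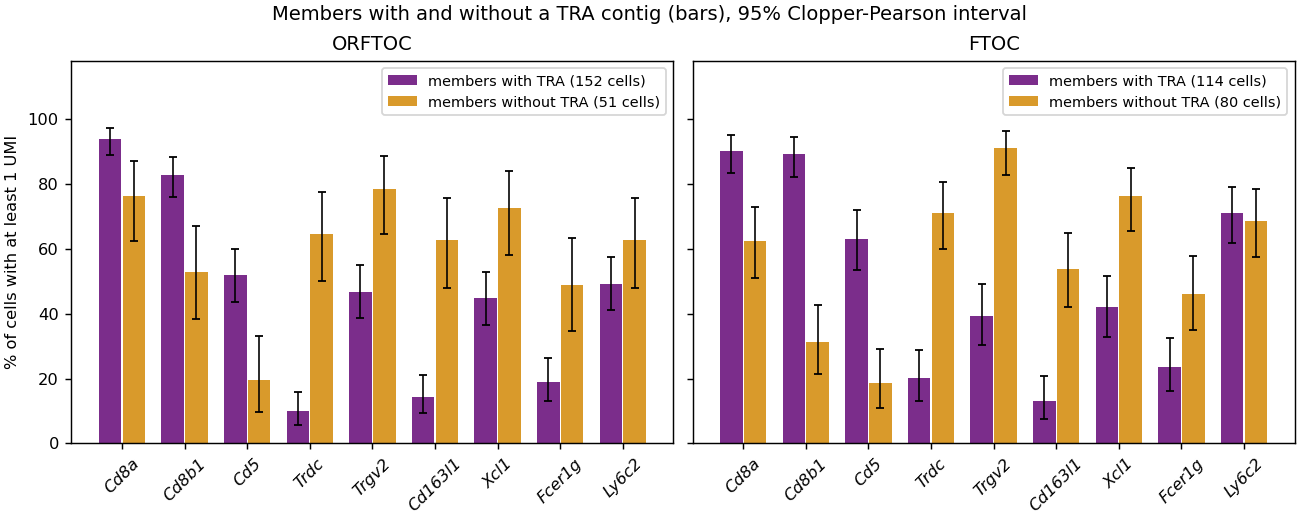
Share of members with at least 1 UMI of each of 9 genes (y axis, %), for members with and without a TRA contig in each pool, where error bars are 95% Clopper-Pearson intervals. In both pools the bars for Cd8b1 and Cd5 are higher with TRA (Cd8b1 82.9 against 52.9% and 89.5 against 31.2%), the bars for Trdc, Trgv2, Cd163l1, Xcl1 and Fcer1g are lower, and those for Ly6c2 have overlapping intervals.

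The members were next compared with the contig-free cytotoxic cells, which passed the same Nkg7 and Klrd1 limits. The members had more CD8 and less of the gamma-delta, NK adaptor and chemokine transcripts, and their CD3 levels were close. Of 1458 genes compared, 0.686% were at least 2-fold higher and 1.65% at least 2-fold lower in members. Both coreceptor genes at the level limit were higher, 5 of 7 gamma-delta genes were lower, 3 of 5 NK receptor and adaptor genes were lower and both cytokine genes were lower. Of 12 genes of the TCR complex and its proximal signalling only Trac passed, being higher in members. Contig-free cells lacked a TRA contig by definition, so the higher Trac level is no separate result.

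Cd8b1 (ENSMUSG00000053044) was at 438 CPM in ORFTOC members and 367 CPM in FTOC members, and at 163 and 98.997 CPM in the contig-free cells (log2 ratio over both pools 1.67, 1.54 to 1.80). Cd8a was at 447 and 365 CPM in members and at 265 and 147 CPM in contig-free cells (1.03, 0.92 to 1.15), and the Cd8a ratio was under 2-fold in ORFTOC (0.75) and past it in FTOC (1.31). Each member pool was above each contig-free pool. Both chains were detected in 72.4% of ORFTOC and 60.8% of FTOC members but in 24.3 and 18.1% of contig-free cells. Neither chain was detected in 7.39 and 16.5% of members and in 36.5 and 52.3% of contig-free cells. When every cell was thinned to 1000 UMIs, Cd8b1 was detected in 29.6 and 28.4% of members and 10.5 and 9.47% of contig-free cells. Cd4 was rare in members, with 8.37 and 7.22% of cells.

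Trdc (ENSMUSG00000104876) was at 56.4 and 122 CPM in ORFTOC and FTOC members and at 243 and 228 CPM in contig-free cells (-1.44, -1.60 to -1.28). The share of cells with Trdc was 23.6 and 41.2% in members against 71.8 and 70.4% in contig-free cells. The gap was larger in ORFTOC (-2.11) than in FTOC (-0.91), the latter within 2-fold. Most members held a TRA contig and contig-free cells held none, so the Trdc level is not independent of this grouping. Cd163l1 was at 141 and 409.8 CPM in members and contig-free cells of both pools (-1.54), and Tcrg-V6, a gamma chain V segment of fetal T cells, at 39.8 and 130.2 CPM (-1.71). The Tcrg-V6 level of contig-free cells was 225 CPM in ORFTOC and 54.3 CPM in FTOC.

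Chemokines and NK adaptors were lower in members, while of 6 granule genes at the level limit 1 (Gzmc) was lower, 1 (Gzma) was higher and the rest were within 2-fold. Xcl1 (ENSMUSG00000026573), the ligand of the dendritic cell receptor XCR1, was at 486 and 685 CPM in ORFTOC and FTOC members and 1487 and 2031 CPM in contig-free cells (-1.63, -1.69 to -1.57). Ccl5 was at 354 and 1011 CPM over both pools (-1.51), Gzmc at 221 and 784 CPM (-1.83), Fcer1g at 227 and 651 CPM (-1.52) and Tyrobp at 112 and 400.3 CPM (-1.84). The ratios for Xcl1, Gzmc, Fcer1g and Tyrobp passed 2-fold in both pools. Gzma went the other way, at 191 and 76.1 CPM (1.33, 1.15 to 1.502), with a ratio of 0.57 in ORFTOC and 2.01 in FTOC, and was detected in 36.3% of members and 21.9% of contig-free cells. Gzmb (305 and 563 CPM) and the lysosomal protease gene Ctsw (529 and 722 CPM) stayed within 2-fold. Also higher in members were the chromatin organizer Satb1 (238 and 110.2 CPM, 1.11), Ccr7, which guides T cells to lymphoid tissue (159 and 76.3 CPM, 1.06), and Lef1, a transcription factor of naive T cells (111 and 54.9 CPM, 1.02).

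Some of the genes lower in members were markers of other cell types. The summed level of 7 mesenchymal genes was 8.73 and 14.6 CPM in ORFTOC and FTOC members and 1247 and 8.19 CPM in contig-free cells, so the 3 mesenchymal genes past 2-fold came from the ORFTOC contig-free cells. The summed level of 8 macrophage genes was 147 and 50.3 CPM in members and 477 and 507 CPM in contig-free cells, and of these genes Lyz2 passed 2-fold (52.2 and 276 CPM, -2.40). Apoe was lower as well (76.3 and 261 CPM, -1.78). With cells removed that held UMIs of another cell type, Lyz2 was at a log2 ratio of -0.15 and Apoe at 0.065. Lyz2 was among the macrophage genes that chose the removed cells, so its change was bound to follow. Apoe, also a macrophage gene, was not used for the choice but goes with such genes. Xcl1 (-1.55), Trdc (-1.55) and Tyrobp (-2.01), which were not used for it, stayed past 2-fold.

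**Figure D4:**
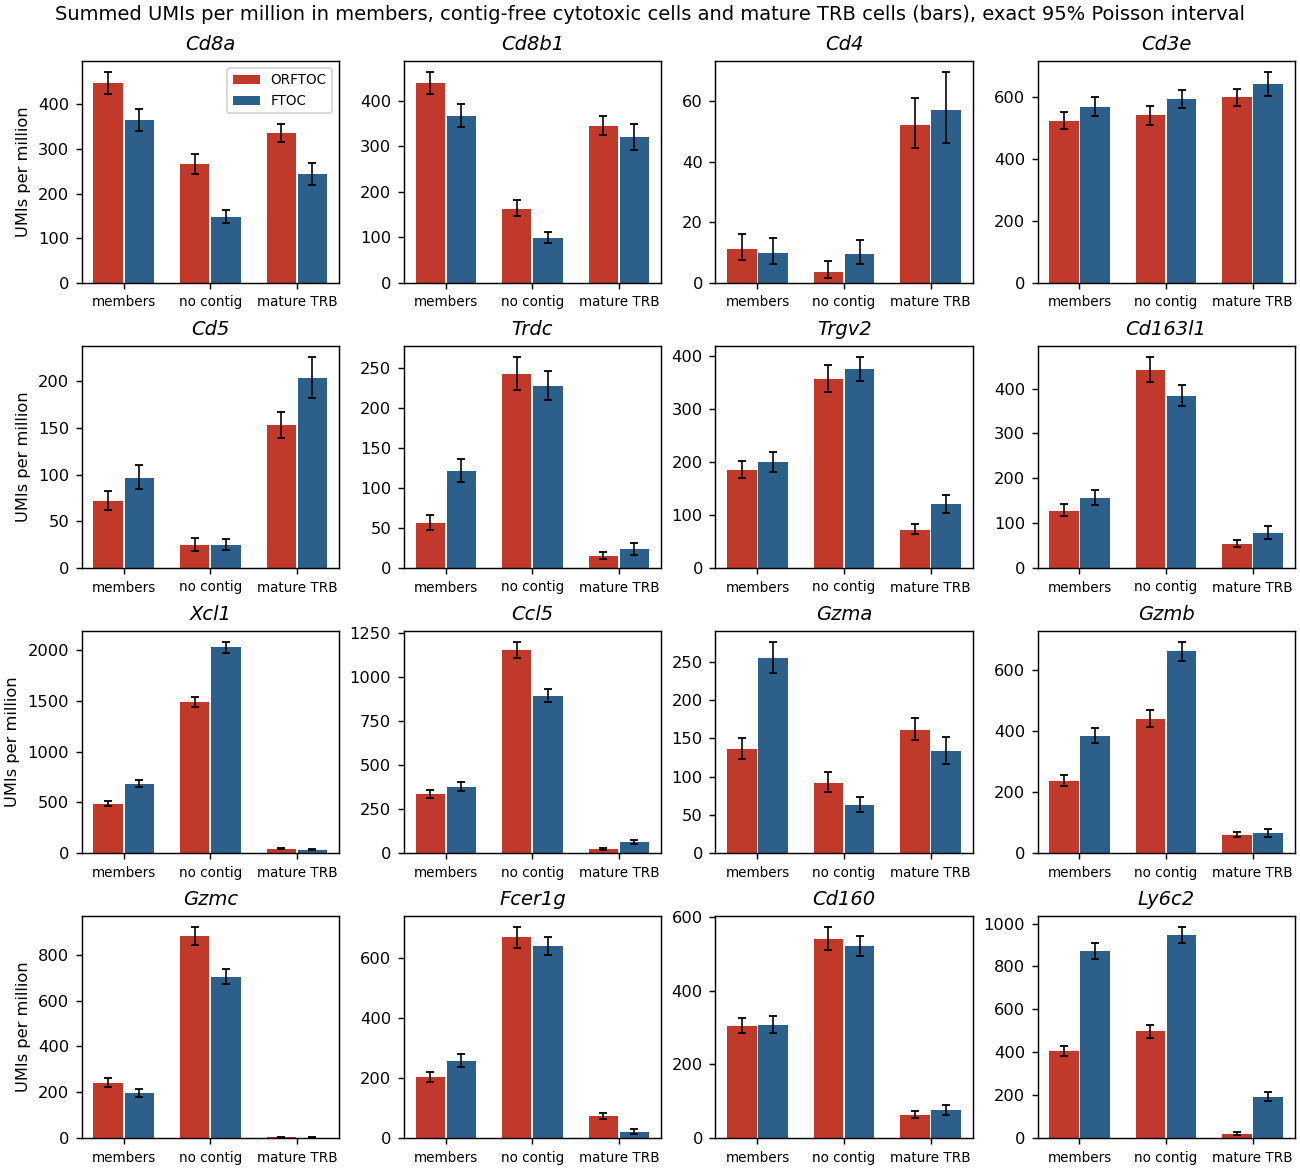
Summed level (y axis, CPM, each panel with its own scale from 0) of 16 genes in members, contig-free cytotoxic cells and mature other TRB cells of the ORFTOC and FTOC pools, where error bars are exact 95% Poisson intervals. Members lie between the other groups for Trdc, Cd163l1, Xcl1, Ccl5, Gzmc and Fcer1g, are highest for Cd8a and Cd8b1, and are close to the contig-free cells for Ly6c2 (406 and 871 CPM against 498 and 948 CPM).

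Against all other TRB cells, the members had more of the cytotoxic genes and less of the genes of CD4 and CD8 double-positive thymocytes. Of 1719 genes compared, 2.39% were at least 2-fold higher and 8.44% at least 2-fold lower. The other TRB cells were shallower. The rule had taken from them only the cells that passed both the Nkg7 and Klrd1 limits, so genes that go with both were bound to differ. Cells that passed a single limit, such as those with Nkg7 but no Klrd1, stayed among them. The largest ratios were those of Gzmc (221 and 8.15 CPM, 4.76), Ly6c2 (619 and 38.2 CPM, 4.02), Ifitm1 (163 and 14.1 CPM, 3.53) and Cd7 (1346 and 119.951 CPM, 3.49). Of 8 double-positive thymocyte genes at the level limit 7 were lower, among them Dntt (20.1 and 470.2 CPM, -4.55), Arpp21 (14.2 and 285 CPM, -4.33), Rag1 (23.8 and 394 CPM, -4.05) and Cd4 (10.6 and 155 CPM, -3.86). Gzma did not belong to the cytotoxic genes in this respect, at 191 CPM in members and 323 CPM in the other TRB cells (-0.76). The macrophage genes summed to 103 CPM in members and 1156 CPM in the other TRB cells, and the mesenchymal genes to 11.4 and 432 CPM, with Col3a1 and Sparc among the lower genes. With cells removed that held UMIs of another cell type, 88 genes were lower in place of 145. That removal also took every cell with both Rag1 and Cd4, and so double-positive thymocytes among the other TRB cells. How much of the change came from these thymocytes was not tested.

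The mature TRB cells were the closer comparison in depth and in TRB junctions. As a subset of the other TRB cells, they too lacked every cell that passed both the Nkg7 and Klrd1 limits. Genes that go with both were therefore bound to differ here as well. Of 1494 genes compared, 1.61% were at least 2-fold higher and 1.87% at least 2-fold lower in members. The higher genes included 3 of 5 granule genes at the level limit, namely Gzmc (221 and 1.89 CPM, 6.87, 5.94 to 8.003), Gzmb (305 and 61.5 CPM, 2.31) and Ctsw (529 and 159.7 CPM, 1.73). Both chemokines were higher, Xcl1 at 577 and 39.7 CPM (3.86, 3.65 to 4.08) and Ccl5 at 354 and 35.5 CPM (3.32), and so were the receptors Cd160 (306 and 67.0 CPM, 2.19) and Il2rb, the shared beta chain of the IL-2 and IL-15 receptors (206 and 63.4 CPM, 1.70). Itgae, the integrin chain CD103 that holds T cells in epithelia, was at 129 and 47.4 CPM (1.45). Cd8a and Cd8b1 were within 2-fold (0.44 and 0.27) over the mature cells as a whole, of which 37.9% held both chains.

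Ly6c2 (ENSMUSG00000022584), which encodes a surface marker of memory CD8 T cells, showed a gap of different size in the pools. It was at 406 CPM in ORFTOC members and 20.2 CPM in ORFTOC mature cells (4.33), and at 871 and 191 CPM in FTOC (2.19). The mature FTOC cells thus had a higher level than the mature ORFTOC cells, but both were below either member pool.

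Lower in the members than in mature cells were Igfbp4 (166 and 765 CPM, -2.20), Cd5 (82.8 and 170 CPM, -1.04), the naive T cell factors Lef1 (-1.30) and Tcf7 (246 and 492 CPM), and Nr4a1, an early target of TCR signals (43.4 and 120.1 CPM, -1.47). The log2 ratio of Nr4a1 was -1.98 in ORFTOC and -0.98 in FTOC. Ccr7, Klf2 and S1pr1 were also lower, but they had been used to choose the mature cells. Genes that go with them could be lower through that choice, and whether Lef1 and Tcf7 are among these was not tested. The macrophage genes summed to 147 and 50.3 CPM in ORFTOC and FTOC members and 698 and 78.3 CPM in mature cells, and Lyz2 was among the lower genes (-2.35). The mesenchymal genes summed to 8.73 and 14.6 CPM in members and 469 and 119 CPM in mature cells, and Sparc was lower.

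The level of effector genes in the members came from a minority of cells. Gzmc was detected in 18.7% of ORFTOC and 23.7% of FTOC members, Gzmb in 38.9 and 41.8%, Gzma in 38.4 and 34.02% and Xcl1 in 51.7 and 56.2%. The top 10% of cells held 96.4 and 89.3% of the Gzmc UMIs and 62.8 and 63.8% of the Xcl1 UMIs. Ctsw was spread more evenly, with detection in 95.6 and 93.8% of members and 24.6 and 26.0% of its UMIs in the top 10% of cells, as was Cd160 (81.8 and 82.0% of members). In epithelial cells, 0.461% held an Xcl1 UMI and 0.415% a Ly6c2 UMI. The pore-forming gene Prf1 was nearly absent, with 9 UMIs in 203 ORFTOC members and 5 in 194 FTOC members. The transcription factors Eomes and Tbx21, which control cytotoxic genes, were detected in 24.1 and 20.2% of ORFTOC and in 31.4 and 22.7% of FTOC members.

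Between the pools, the members were alike in most genes. Of 1458 genes compared, 0.206% (3 genes) were at least 2-fold higher in ORFTOC and 0.412% (6 genes) at least 2-fold lower, and the median log2 ratio of all compared genes was 0.01. The 6 genes lower in ORFTOC were Ly6c2, Il2rb, Trdc, Tnfrsf9, Ifitm1 and Xist. Ly6c2 was at 406 CPM in ORFTOC (383 to 431) and 871 CPM in FTOC (833 to 910, log2 ratio -1.10, -1.21 to -0.99). It was detected in 52.7 and 70.1% of members, and in 22.7 and 43.3% after thinning to 1000 UMIs. The same order held in members with TRA (344 and 786 CPM), in members without TRA (599 and 999 CPM) and in contig-free cells (498 and 948 CPM). The related gene Ly6a showed the same order at 416 and 800 CPM (-0.94), within 2-fold.

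Il2rb was at 141 and 282 CPM in ORFTOC and FTOC members (-1.003, -1.19 to -0.82). Its gap was wider in members without TRA (154 and 385 CPM) than in those with TRA (137 and 215 CPM), and Il2rb was also lower in the ORFTOC contig-free cells (229 and 405 CPM). Tnfrsf9, the costimulatory receptor 4-1BB, was at 44.7 and 104 CPM (-1.22), and Ifitm1 at 108 and 229 CPM (-1.09) from 11.3 and 15.98% of cells. Trdc was at 56.4 and 122 CPM (-1.11), and the share of members without TRA, which held most of it, was lower in ORFTOC as given above. Within the members without TRA the Trdc level was 199 CPM in ORFTOC and 232 CPM in FTOC, with overlapping intervals. Within the members with TRA it was 10.6 CPM in ORFTOC (6.63 to 16.02) and 49.2 CPM in FTOC (38.3 to 62.3), so the pools also differed there.

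Xist, the noncoding RNA of the inactive X chromosome in female cells, was at 153 and 419 CPM (-1.45) and was detected in 37.9% of ORFTOC and 89.2% of FTOC members. It had the same order in contig-free cells (121 and 429 CPM) and mature cells (160.5 and 378 CPM). The labels do not give the sex of the embryos, so the sex of the cells and the culture type cannot be told apart for any gene that differed between the pools.

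The 3 genes higher in ORFTOC were Spp1, Apoe and Trbv15. A single ORFTOC member held 335 of the 340 Spp1 UMIs and 292 of the 319 Apoe UMIs of its pool, together with 193 Lyz2 and 35 C1qa UMIs, which are macrophage transcripts, among 23246 UMIs. Without it Spp1 was at 1.83 CPM in ORFTOC and Apoe at 9.91 CPM, against 1.29 and 29.3 CPM in all FTOC members. Trbv15, a beta chain V gene, was at 138 and 41.3 CPM and was detected in 17 ORFTOC and 4 FTOC members. Granzymes stayed within 2-fold, with Gzmb at 236 and 385 CPM (-0.70) and Gzma at 136 and 255 CPM (-0.90). Without their highest cells, Gzma was at 122 and 175 CPM and Gzmc at 139.8 and 176 CPM, where all cells gave 241 and 197 CPM for Gzmc.

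**Figure D5:**
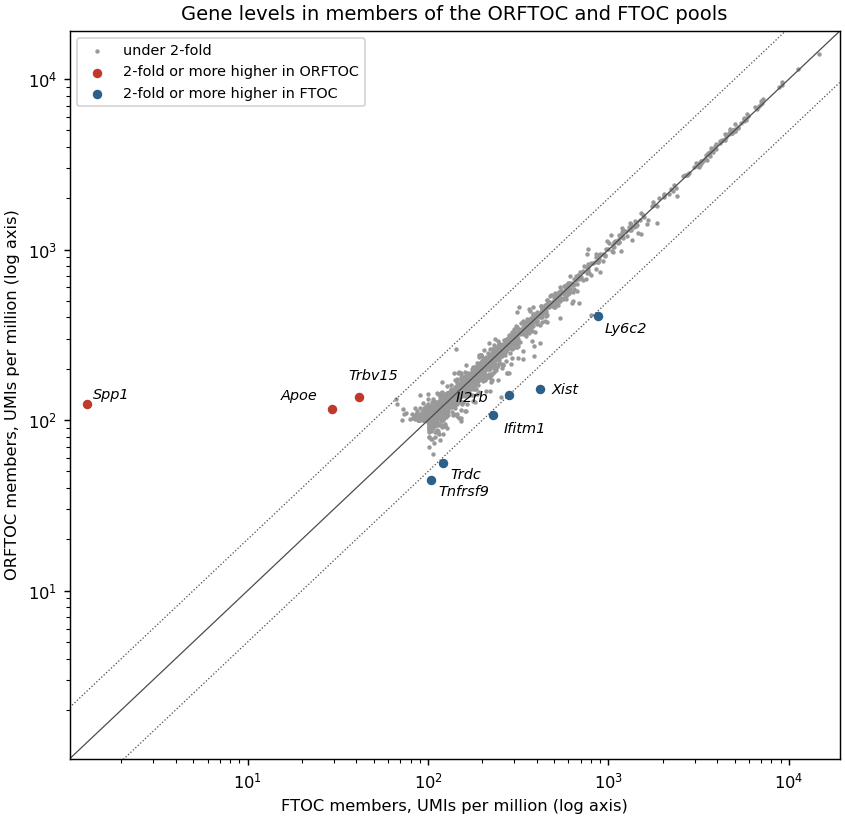
Level of each of 1458 genes in ORFTOC members (y axis, CPM, log scale) against FTOC members (x axis, same unit, log scale), where the solid line marks equal levels and dotted lines 2-fold. The 6 genes named below the line include Ly6c2 (406 and 871) and Xist (153 and 419), and Spp1 and Apoe above it rest mostly on 1 cell.

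Summed levels of epithelial, macrophage and mesenchymal genes in the members were below those of the cell-free RNA. Such transcripts were not confined to that cell. In ORFTOC and FTOC members, the summed level of 8 epithelial genes was 85.5 and 43.9 CPM, and that of 9 genes of innate lymphoid cells of types 2 and 3 was 2.91 and 3.01 CPM, with 6 of the 9 at 0 in each pool. In the cell-free RNA (barcodes with 10 to 100 UMIs), the epithelial genes summed to 2025 CPM, the macrophage genes to 1161 CPM and the mesenchymal genes to 741 CPM. Both Rag1 and Cd4, a pair typical of double-positive thymocytes, were present in 21 members (5.29%). A member counted as holding RNA of another cell type with at least 3 summed macrophage, epithelial and mesenchymal UMIs, or with both Rag1 and Cd4. This held for 53 members, and the innate lymphoid genes were not used for it. The part of these 53 members in the results was not tested beyond the values without them.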

How the data were processed

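Gene expression, TCR and hashtag libraries of 1 droplet lane were analysed. Per the submitters' processing notes, the authors used Cell Ranger 6.1.2 and Seurat 4.2.0 with build mm10, while the header of the matrix names major version 4. The deposited matrix holds unfiltered counts of UMIs, and the deposited contig lists give counts of UMIs behind each assembled chain. The filtered list held 7227 contigs (4830 TRB, 2397 TRA) in 4649 barcodes, of which 4119 were assigned cells. No deposited column was left without a sample (0 columns).

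Cells were kept with at least 600 genes (10910 barcodes) and 0.4 to 10% mitochondrial UMIs (10245), and with at least 10 hashtag UMIs of which 80% named 1 pool (9349), per the labels HTO_1 for FTOC and HTO_2 for ORFTOC. The 896 barcodes that missed the hashtag limits, doublets between pools among them, were left out, and within-pool doublets were removed only as an alternative. UMIs were summed per pool and group and given as CPM. Log2 ratios carry conditional binomial intervals, a sum under 3 UMIs was set to 3, and genes at 100 CPM or more in the higher group were held against a 2-fold limit. Shares carry Clopper-Pearson intervals. Junctions were matched to germline segments of GENCODE vM39 on GRCm39. Segment positions and the counts of unexplained letters rest on that build, and no coordinate was converted. The fold calls and the junction matching were tested on simulated data. The simulated junctions held no D segment, so the D match behind the counts of unexplained TRB letters was not tested.

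Genes were named by the fixed lists and as the 10 largest and 10 smallest ratios of a comparison at 100 CPM and 10% of cells, without the genes of the rule and TCR segments. Trbv15 and the genes of single cells were named after their values were seen. The members and lists were chosen with earlier results of these data known. Python 3.11.15, numpy 2.4.6, scipy 1.17.1, pandas 2.3.3, scikit-learn 1.9.0 and matplotlib 3.10.9 were used.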

Additional observations from a re-analysis of the deposited data

Results flagged for a closer look

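One signal lay outside the filtered contigs on which the groups rest. Of the 424 contig-free cytotoxic cells, 126 (29.7%, 25.4 to 34.3%) held a TRB contig in the unfiltered list, against 75 of 2171 epithelial cells (3.45%, 2.73 to 4.31%). These cells held 185 such contigs with a median of 6 UMIs, of which 49, in 22 cells, were marked productive and 0 were in a barcode that the TCR pipeline called a cell. In the members, contigs of the filtered list had a median of 29 UMIs. The contig-free group is therefore free of filtered contigs only. Whether its cells carry a functional beta chain was not tested.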

How the results depend on the processing

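Alternatives to 14 choices were run. Of 185 main results under them, 168 kept their value within the set limits and 17 moved. The limit of at least 3 UMIs per TRB contig could not change which cells were members, since their contigs held at least 4. The number of members ranged from 324 to 433, the share of cytotoxic cells with TRB from 48.1 to 53.9% in ORFTOC and from 40.6 to 45.5% in FTOC, and the share of members with TRA from 72.4 to 75.4% and from 55.1 to 59.4%. Repeated junctions ranged from 21.2 to 22.7% of ORFTOC and from 1.65 to 2.48% of FTOC members, and the median TRB junction stayed at 39 nucleotides. Counts of genes past 2-fold moved most. With a limit of 50 CPM, they became 8 higher and 10 lower for ORFTOC over FTOC members, 20 and 48 over contig-free cells, 90 and 270 over other TRB cells, and 54 and 64 over mature cells, as more genes were tested. With equal weight for each cell, 97 and 349 genes passed against other TRB cells. For ORFTOC over FTOC, 1 gene was higher with at least 5 Nkg7 UMIs. There, 5 genes were higher with at least 2 Klrd1 UMIs, with 90% hashtag purity or with 1 cell per junction, and 3 were lower with at least 2 Klrd1 UMIs. With exactly 1 TRB contig, 5 genes were higher than in contig-free cells. With cells holding RNA of another type removed, 88 were lower than in other TRB cells, where the removal also took double-positive thymocytes. The cause of these moves was not tested.

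Of 1313 log2 ratios of named genes under the alternatives, 1122 stayed within the interval of the value given above, 188 left it and 3 reversed. The reversals were those of Apoe, at -1.55 (at least 5 Nkg7 UMIs) and -0.45 (cells with RNA of another type removed) for ORFTOC over FTOC, and at 0.065 over contig-free cells with the same removal. No paired analysis was possible because each pool is 1 sample. Depth limits shares of cells with low genes, and leaving out a replicate was not possible.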
